A study of Mus musculus with 8 samples.

Results

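The genes of glucose breakdown and its side branches were followed in mouse kidney tubular epithelial cells with and without aldehyde dehydrogenase 2 (Aldh2), which clears acetaldehyde and the aldehydes of lipid peroxidation inside mitochondria. Members were the rows of the expression table whose gene symbol stood on a list of 39 genes in 3 arms: glycolysis with glucose uptake and lactate export, gluconeogenesis, and the pentose phosphate pathway. Of these, 35 genes were found on 36 of 14145 rows, since Aldoa has rows under 2 gene identifiers. The glucose transporter Slc2a3, the cytosolic carboxykinase Pck1 and the fructose bisphosphatases Fbp1 and Fbp2 were not analysed here. Glycolysis holds 24 rows, gluconeogenesis 4 and the pentose phosphate pathway 8.

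Primary tubular epithelial cells came from the kidneys of control mice (labelled WT) and of mice that lack Aldh2 in tubular epithelium (labelled KO), and were grown in DMEM/F12 medium with fetal bovine serum, without treatment. Total RNA was sequenced in 4 WT and 4 KO libraries. The sources used here do not give the driver of the deletion or the strain and age of the mice. Nor do they say whether each library came from its own mouse, so the p-values stand for the spread among these 8 libraries, part of which may be technical. The genotype field of the KO samples runs through ALDH2, ALDH3, ALDH4 and ALDH5 knockout, and the groups were therefore taken from the sample titles.

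Glycolysis splits glucose into 2 molecules of pyruvate. Hexokinase traps glucose as its 6-phosphate, phosphofructokinase commits it to the pathway, and the enzymes from glyceraldehyde 3-phosphate dehydrogenase to pyruvate kinase, grouped here as lower glycolysis, recover the energy as ATP. Lactate dehydrogenase and monocarboxylate transporters then make and export lactate. The pentose phosphate pathway turns glucose 6-phosphate into NADPH in its oxidative branch and shuffles sugars back to glycolysis in its non-oxidative branch. In the healthy kidney the proximal tubule is known for making glucose and for burning fatty acids, while more distal segments use glucose.

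Aldh2 read 31.08, 23.69, 25.45 and 25.19 FPKM in WT 1 to 4 and 0.88, 1.64, 1.20 and 1.26 FPKM in KO 1 to 4, so every library matched its label (limma, adjusted p = 3.43e-05). FPKM are fragments scaled to exon length and library depth, so levels can be set against each other between genes. The length is that of all annotated exons of a gene, so such comparisons depend on the annotation. Depths recovered from the values were 17050000 to 18760000 reads or fragments per library. Xist and Y-linked transcripts mark KO 1 and KO 2 as female and the other 6 libraries as male, and KO 3 and KO 4 are also set apart from KO 1 and KO 2 in many genes. Among markers of proximal tubule 7 of 18 had a row, without Slc34a1, Slc5a2, Slc5a12, Slc22a6 and Cubn, and the summed level of the 7 was 26.6 to 96.1 FPKM in WT and 15.9 to 64.8 in KO. The label of tubular cells therefore rests on few of the defining markers in these cultures. In bulk RNA, fewer cells of a type and less RNA per cell cannot be told apart.

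No member passed the test between KO and WT. The test was limma on log2(FPKM + 1) over all 14145 rows with Benjamini-Hochberg adjustment, at an adjusted p of 0.05, and it called 11 rows or 0.0778% of the table. Means are given ± SD over the 4 libraries of a group. The lowest adjusted p of a member was 0.108, for Pfkm. By unadjusted p below 0.05, 13 of 36 member rows were higher in KO and 0 were lower, where 7.58% of all rows were higher and 11.6% lower. In 9 rows every KO library lay above every WT library, and in 0 rows below, against 4.76% of all rows above and 6.86% below. In direction alone, 23 of 36 member rows (63.9%) were higher in KO, against 44.5% of all rows, with a median difference of 0.29 on the log2 scale against -0.06 for all rows. By arm, 14 of 24 glycolysis rows were higher (median 0.16; 8 by unadjusted p), 4 of 4 gluconeogenesis rows (0.42; 2) and 5 of 8 pentose phosphate rows (0.44; 3). Without KO 3 and KO 4 these medians were 0.04, 0.03 and 0.13.

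**Figure D1:**
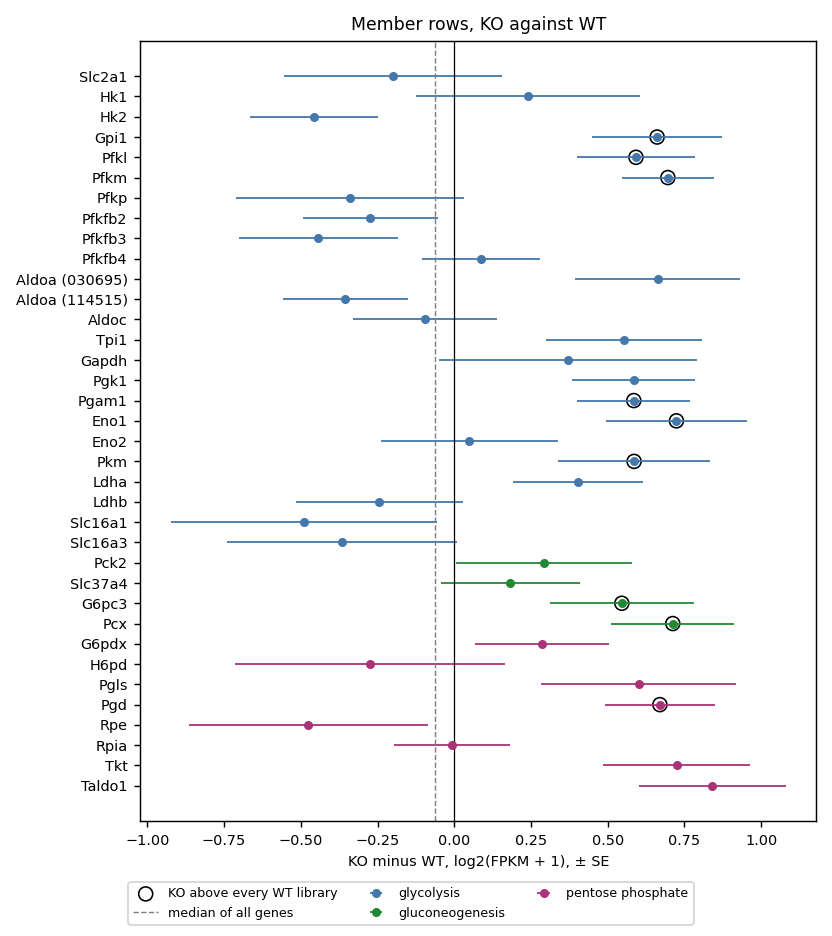
Difference between KO and WT in log2(FPKM + 1) for the 36 member rows (points, mean difference; bars, SE from limma; colours, arms; black circles, rows whose KO libraries all lie above the WT libraries). The 9 circled rows lie between 0.55 and 0.72, and no row passed the adjusted threshold.

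By level the members ran from Ldhb, at 533.8 FPKM in WT, to the second Aldoa row at 0.596 FPKM. The rows from Ldhb through Aldoa, Eno1, Pkm, Pgam1, Pgk1, Ldha and Taldo1 were the 8 most abundant in both groups. Neighbours in that order mostly could not be separated: in 5 of 35 adjacent pairs the WT libraries did not overlap, among them Ldhb above Aldoa and Slc2a1 above Gpi1. Of 16 rows with a WT mean of at least 30 FPKM, 12 were higher in KO and 5 without overlap, and of the 20 rows below it 11 were higher and 4 without overlap.

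Glucose entry and the first phosphorylation showed no common direction. Slc2a1, the main glucose transporter of cultured cells, read 61.5, 67.1, 82.9 and 71.4 FPKM in WT 1 to 4 and 59.3, 30.9, 126 and 60.2 FPKM in KO 1 to 4. KO 3 was the highest library and KO 2 the lowest of all 8, so the KO libraries spanned the WT libraries. Hk1, the constitutive hexokinase, ranged from 20.9 to 30.7 FPKM in WT and from 16.3 to 58.9 in KO, with KO 1 and KO 2 below every WT library and KO 3 and KO 4 above. Hk2, the inducible hexokinase, was at 34.2 ± 6.46 FPKM in WT and 24.8 ± 5.88 in KO, with KO 1, KO 3 and KO 4 below every WT library and KO 2 inside their range. Its difference was -0.46 ± 0.21 on the log2 scale (SE; adjusted p = 0.269).

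Gpi1 and the phosphofructokinases Pfkl and Pfkm, at the next steps of the pathway, had every KO library above every WT library. Gpi1 (chromosome 7, 34201330 to 34230336), which isomerises glucose 6-phosphate to fructose 6-phosphate, read 41.0, 37.0, 38.2 and 51.5 FPKM in WT 1 to 4 and 53.0, 53.8, 79.0 and 85.7 FPKM in KO 1 to 4. The 2 higher KO libraries were KO 3 and KO 4, and the difference was 0.66 ± 0.21 on the log2 scale (SE; adjusted p = 0.179). Pfkl (chromosome 10, 77986947 to 78010083), the liver-type subunit, read 15.2, 12.1, 13.8 and 16.4 FPKM in WT 1 to 4 and 17.5, 19.0, 26.1 and 27.3 FPKM in KO 1 to 4. It also had KO 3 and KO 4 highest, with means of 14.4 ± 1.87 FPKM in WT and 22.5 ± 4.94 in KO and a difference of 0.59 ± 0.19 on the log2 scale (SE; adjusted p = 0.18).

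Pfkm, the muscle-type subunit (chromosome 15, 98092589 to 98132451), read 10.5, 8.48, 9.10 and 9.46 FPKM in WT 1 to 4 and 14.7, 14.3, 17.3 and 17.2 FPKM in KO 1 to 4. All KO libraries lay clear of the highest WT library, and KO 1 and KO 2 were close to KO 3 and KO 4. The means were 9.40 ± 0.863 FPKM in WT and 15.9 ± 1.60 in KO, and the difference was 0.70 ± 0.15 on the log2 scale (SE; adjusted p = 0.108). Pfkp, the platelet-type subunit, pointed the other way on the mean, at 6.61 ± 5.36 FPKM in WT and 4.26 ± 0.92 in KO, but this rested on WT 4 at 14.64 FPKM; the other 3 WT libraries read 3.72 to 4.06 and the KO libraries 3.16 to 5.34. Pfkm took 31.8% ± 5.68 of the summed FPKM of Pfkl, Pfkm and Pfkp in WT and 37.5% ± 2.77 in KO (SD, n = 4 each; exact two-sided permutation p = 0.0286, adjusted over 4 families 0.0571, where 0.0286 is the smallest p that 4 against 4 allows). Without WT 4, at 23.3%, the difference was 2.85 points in place of 5.68. WT 1 at 35.3% and KO 4 at 35.4% nearly touched. The exon lengths behind the FPKM were 3340 bases for Pfkm, 6675 for Pfkl and 13401 for Pfkp. The size of the shares therefore depends on the annotated exons, and shares by reads were not computed.

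The bifunctional enzymes that set the level of fructose 2,6-bisphosphate, the activator of phosphofructokinase, had no common direction. Pfkfb3, the inducible form, ranged from 7.13 to 11.9 FPKM in WT and from 3.78 to 9.17 in KO, and Pfkfb2 and Pfkfb4 stayed at or below 2.00 FPKM in all libraries. Their differences were -0.44, -0.27 and 0.09 in that order.

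Aldolase and triose phosphate isomerase, which split the hexose and interconvert the trioses, were more abundant in KO on average but overlapped through WT 4. The abundant Aldoa row (ENSMUSG00000030695, chromosome 7, 126795234 to 126800751) read 207, 197, 219 and 319 FPKM in WT 1 to 4 and 314, 265, 485 and 449.8 FPKM in KO 1 to 4. WT 4 lay above KO 1 and KO 2, while KO 3 and KO 4 lay above all WT libraries, and the difference was 0.66 ± 0.27 on the log2 scale (SE; adjusted p = 0.234). The second Aldoa row (ENSMUSG00000114515, chromosome 7, 126800790 to 126809108, next to the first on the same strand) read 0.87, 0.29, 0.21 and 1.01 FPKM in WT 1 to 4 and 0.27, 0.35, 0.20 and 0.07 FPKM in KO 1 to 4. Its lowest library rested on 1 read or fragment, and the groups overlapped, with a difference of -0.36 ± 0.20 on the log2 scale (SE; adjusted p = 0.348). Tpi1 had means of 98.0 ± 21.9 FPKM in WT and 147 ± 44.2 in KO (adjusted p = 0.273), and Aldoc, a minor aldolase, means of 1.10 ± 0.664 FPKM in WT and 0.925 ± 0.324 in KO.

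All 6 rows of lower glycolysis were higher in KO on average, with a median difference of 0.59, although those of Gapdh and Eno2 differed by less than their SE. Pgk1, phosphoglycerate kinase on the X chromosome (106187100 to 106203699), read 122, 116, 125 and 167 FPKM in WT 1 to 4 and 195, 164, 239 and 198 FPKM in KO 1 to 4. Only WT 4 and KO 2 broke the separation, and the difference was 0.59 ± 0.20 on the log2 scale (SE; adjusted p = 0.195). Pgam1, phosphoglycerate mutase (chromosome 19, 41911923 to 41918660), read 180.4, 149, 150.1 and 188 FPKM in WT 1 to 4 and 256, 218, 248 and 279 FPKM in KO 1 to 4. Here KO 1 was as high as KO 3, all KO libraries lay above WT, and the difference was 0.59 ± 0.18 on the log2 scale (SE; adjusted p = 0.177).

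Eno1 and Pkm, which carry out the last steps to pyruvate, were among the most abundant members and also had no overlap. Eno1, the main enolase (chromosome 4, 150236721 to 150248879), read 189.7, 191, 222 and 235 FPKM in WT 1 to 4 and 336, 247, 446 and 383 FPKM in KO 1 to 4. The highest WT library, WT 4, lay just below the lowest KO library, KO 2, and the difference was 0.72 ± 0.23 on the log2 scale (SE; adjusted p = 0.177). Pkm, pyruvate kinase (chromosome 9, 59656368 to 59679375), read 211, 181, 205 and 209 FPKM in WT 1 to 4 and 215, 249, 406 and 383 FPKM in KO 1 to 4. KO 1 lay just above the highest WT library, KO 3 and KO 4 lay far above it, and the difference was 0.59 ± 0.25 on the log2 scale (SE; adjusted p = 0.244). Eno2, the neuronal enolase, was at 1.10 ± 0.793 FPKM in WT and 1.13 ± 0.598 in KO, and its groups overlapped.

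**Figure D2:**
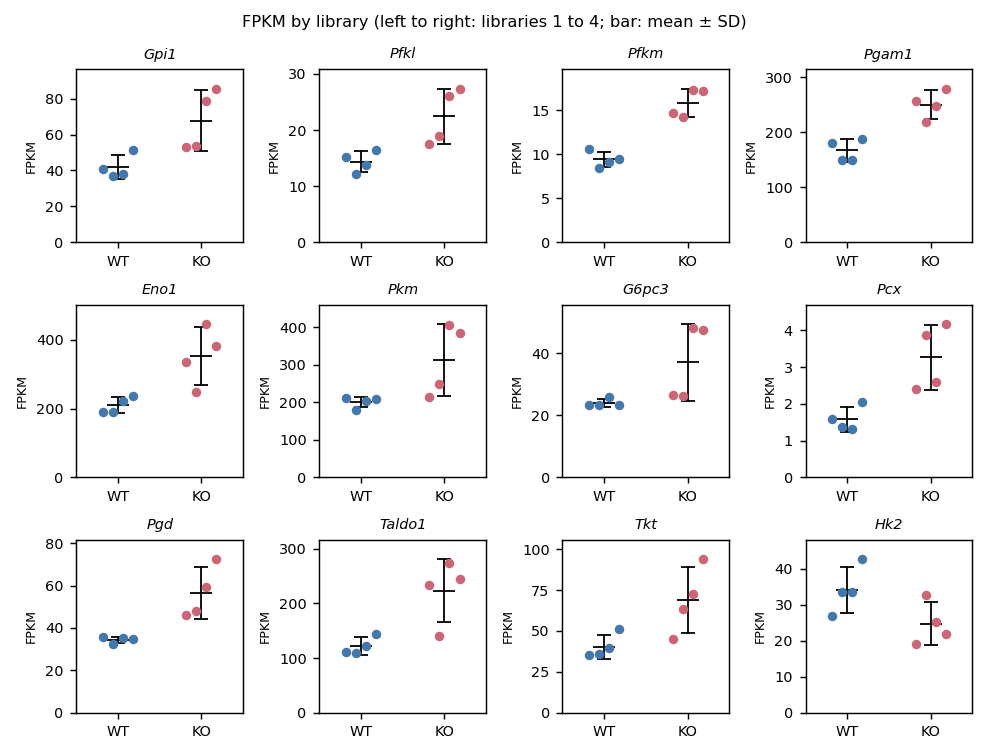
FPKM by library for the 9 rows without overlap between groups and for Taldo1, Tkt and Hk2 (points, libraries 1 to 4 from left to right; bars, mean ± SD). In Gpi1, Pfkl, Pkm and G6pc3 the points of KO 3 and KO 4 lie well above KO 1 and KO 2; in Pfkm and Pgam1 the 4 KO points lie close together, above every WT point.

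Gapdh, glyceraldehyde 3-phosphate dehydrogenase, is as a rule among the most abundant transcripts of a cell, and its row held little. It read 1.57, 0.94, 1.34 and 2.15 FPKM in WT 1 to 4 and 1.12, 2.08, 7.22 and 0.91 FPKM in KO 1 to 4. KO 3 stood alone, and the difference was 0.37 ± 0.42 on the log2 scale (SE; adjusted p = 0.625). In GENCODE M21, 177 other genes, of which 166 are pseudogenes, hold a stretch of at least 300 bases with at least 90% identity to the Gapdh transcripts, and 21 of them have a row in the table. The most abundant was Gm5559, a processed pseudogene (chromosome 5, 95861714 to 95862715, plus strand), named after its values were seen. It is 99.9% identical to the whole coding sequence of Gapdh over 1002 bases, with 1 difference, T625A, counted from the first base of the Gapdh transcript. The stretch around that base shows how little a read has to tell these genes apart, with the differing base in capitals.
Gapdh: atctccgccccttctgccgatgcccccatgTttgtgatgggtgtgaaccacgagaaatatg
Gm5559: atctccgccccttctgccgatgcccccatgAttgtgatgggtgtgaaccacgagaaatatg

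Gm5559 read 132.3, 108.0, 120.8 and 128.4 FPKM in WT 1 to 4 and 193.7, 152.7, 335.7 and 296.4 FPKM in KO 1 to 4. No KO library overlapped WT (difference 0.93 ± 0.26 on the log2 scale, SE; adjusted p = 0.154). Gm7336, another processed copy with 99.8% identity, had means of 82.9 and 122.5 FPKM, and its groups overlapped. The Gapdh row and the 21 rows with such a stretch were summed in CPM (depth-scaled counts, here FPKM times exon length in kilobases). Among the 21 is Peli2 (chromosome 14, 48120823 to 48281575), matched over 1084 bases at 90.8% identity. Its row was counted whole and had means of 2.50 FPKM in WT and 1.37 in KO. The sum was 279.4, 233.8, 273.8 and 310.7 in WT 1 to 4 and 323.0, 337.3, 599.2 and 551.3 in KO 1 to 4. Of this the Gapdh row itself held 3.75 to 29.9. The sum lay higher in every KO library than in any WT library. The sources used here do not say how the authors placed reads that match several genes, so the value of the Gapdh row is uncertain and its part in the sum was not tested.

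**Figure D3:**
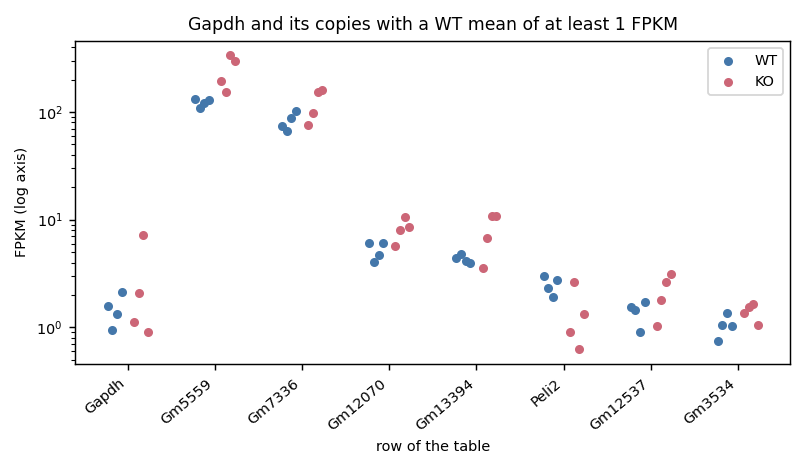
FPKM (log axis) of Gapdh and of the genes holding a stretch with at least 90% identity to it, Peli2 among them, that have a WT mean of at least 1 FPKM (blue, WT; red, KO; libraries 1 to 4 from left to right). Gm5559 and Gm7336 stand above the Gapdh row (0.91 to 7.22 FPKM) in every library, and the KO libraries of Gm5559 lie above its WT libraries.

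Eno1, Pgam1, Pgk1, Gpi1, Tpi1, Pkm, Ldha and Ldhb also had copies with a row in the table. The Eno1 row held 1127 CPM in WT on average against 75.5 for its copies Eno1b and Gm4735 together. Row and copies together gave 1202 in WT and 2002 in KO, a ratio of 1.67 against 1.69 for the row alone. Gm4735, a processed copy, had no overlap between groups (7.75 against 13.95 FPKM on average), and Pgam1-ps2, identical to Pgam1 over 765 bases, read 5.29 to 7.34 FPKM in WT and 7.74 to 13.5 in KO. Pgk1-rs7 likewise had every KO library above WT, at 1.21 against 1.81 FPKM on average. The groups overlapped in Eno1b and in the copies of Gpi1 (Gm1840), Tpi1 (Tpi-rs11), Pkm (Gm6560), Ldha (Ldha-ps2) and Ldhb (Gm5514). Of these, Gm5514 was lower in KO on average and the rest were higher. Reads of these copies and of their parents cannot be told apart where the sequences are identical.

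At the lactate end the lactate dehydrogenases pointed in opposite directions on average, and neither passed the test. Ldha, the form that favours lactate, had means of 129.6 ± 26.3 FPKM in WT and 171 ± 29.4 in KO, and Ldhb, the form that favours pyruvate and the most abundant glycolysis row, read 364, 553, 564 and 654 FPKM in WT 1 to 4 and 337, 393, 495 and 575 FPKM in KO 1 to 4. WT 1 lay between KO 1 and KO 2, and KO 4 lay above WT 3, so the groups of Ldhb overlapped, with a difference of -0.24 ± 0.27 on the log2 scale (SE; adjusted p = 0.621). Ldha overlapped as well, with a difference of 0.40 ± 0.21 on the log2 scale (SE; adjusted p = 0.315). Their ratio, however, separated the groups: Ldha took 24.6%, 16.6%, 17.6% and 20.5% of the summed FPKM of both in WT 1 to 4 and 31.4%, 26.1%, 28.8% and 24.9% in KO 1 to 4. The means were 19.8% ± 3.59 and 27.8% ± 2.91 (SD, n = 4 each; exact two-sided permutation p = 0.0286, adjusted over 4 families 0.0571). WT 1 and KO 4 nearly touched, and the adjusted p missed 0.05.

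The hexokinases and the lactate exporters gave no such separation. Hk1 took 42.7% ± 5.08 of Hk1 and Hk2 in WT and 54.7% ± 15.2 in KO, with KO 3 and KO 4 above all WT libraries and KO 1 and KO 2 inside their range (n = 4 each; exact permutation p = 0.229, adjusted 0.305). Slc16a1, the monocarboxylate transporter MCT1, took 55.6% ± 14.6 of Slc16a1 and Slc16a3 in WT and 54.4% ± 18.4 in KO (n = 4 each; exact permutation p = 0.914). The level of Slc16a1 was 3.21 to 3.58 FPKM in WT 1 to 3, 15.24 in WT 4 and 1.95 to 4.80 in KO. Slc16a3, the exporter MCT4, ranged from 2.21 to 5.93 FPKM in WT and from 0.88 to 4.68 in KO. The 4 rows of the lactate step had a median difference of -0.31, with Ldha alone higher in KO.

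**Figure D4:**
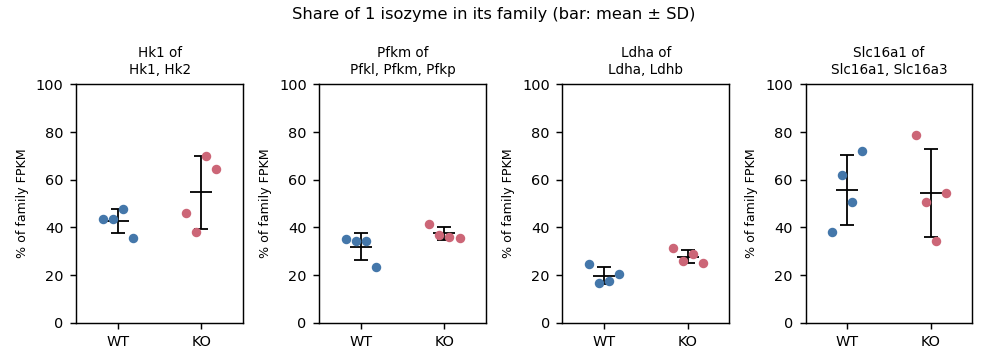
Share of 1 isozyme in the summed FPKM of its family, in percent, by library (points, libraries 1 to 4 from left to right; bars, mean ± SD). The Ldha and Pfkm shares of the KO libraries lie above those of WT, by a narrow margin in both, while the Hk1 and Slc16a1 shares overlap.

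In gluconeogenesis all 4 rows were higher in KO on average, with a median difference of 0.42. Pcx, pyruvate carboxylase, which makes the oxaloacetate from which glucose is built (chromosome 19, 4510472 to 4621752), read 1.60, 1.37, 1.31 and 2.04 FPKM in WT 1 to 4 and 2.41, 3.87, 2.61 and 4.18 FPKM in KO 1 to 4. Its lowest KO library exceeded its highest WT library, KO 2 and KO 4 were the highest, and the means were 1.58 ± 0.331 FPKM in WT and 3.27 ± 0.887 in KO. The difference was 0.71 ± 0.20 on the log2 scale (SE; adjusted p = 0.154), on a scale that understates low genes, and the lowest library held 111 reads or fragments. In the authors' deposited table Pcx carries a log2 fold change of 1.14 and the mark up.

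G6pc3, the ubiquitous glucose 6-phosphatase (chromosome 11, 102189620 to 102194081) and the most abundant row of this arm, read 23.5, 23.4, 26.0 and 23.4 FPKM in WT 1 to 4 and 26.5, 26.2, 48.3 and 47.5 FPKM in KO 1 to 4. KO 1 and KO 2 lay within 1 FPKM of the highest WT library, and KO 3 and KO 4 were nearly equal at the top. The difference was 0.55 ± 0.23 on the log2 scale (SE; adjusted p = 0.248). Slc37a4, the transporter that brings glucose 6-phosphate into the endoplasmic reticulum, had means of 4.61 ± 0.530 FPKM in WT and 5.55 ± 1.84 in KO, and Pck2, the mitochondrial phosphoenolpyruvate carboxykinase, of 9.45 ± 0.893 FPKM in WT and 12.7 ± 5.69 in KO. In both the groups overlapped, and in Pck2 KO 3 and KO 4 alone stood above WT.

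The oxidative branch of the pentose phosphate pathway held 1 row without overlap. Pgd, 6-phosphogluconate dehydrogenase, which makes NADPH (chromosome 4, 149149991 to 149166771), read 35.7, 32.5, 35.2 and 34.7 FPKM in WT 1 to 4 and 46.0, 47.9, 59.3 and 72.5 FPKM in KO 1 to 4. The WT libraries lay close together and every KO library lay above them, with a difference of 0.67 ± 0.18 on the log2 scale (SE; adjusted p = 0.15). G6pdx, glucose 6-phosphate dehydrogenase, the entry enzyme on the X chromosome, had means of 31.4 ± 2.36 FPKM in WT and 39.7 ± 11.1 in KO, with KO 1 below every WT library and the other KO libraries above. Pgls, the lactonase between them, likewise had KO 1 below WT and the others above, at 18.7 ± 2.10 FPKM in WT and 31.5 ± 14.7 in KO. H6pd, the enzyme of the endoplasmic reticulum, ranged from 55.0 to 131.5 FPKM in WT and from 31.8 to 129.5 in KO, with the groups intermixed.

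In the non-oxidative branch the transaldolase and the transketolase were higher in KO and the pentose epimerase and isomerase were not. Taldo1, transaldolase (chromosome 7, 141392199 to 141402968), the most abundant row of this arm, read 110.3, 109.6, 121 and 144 FPKM in WT 1 to 4 and 234, 141, 274 and 245 FPKM in KO 1 to 4. KO 2 lay just under WT 4, and the other KO libraries lay above all WT libraries, with a difference of 0.84 ± 0.24 on the log2 scale (SE; adjusted p = 0.154). This was the largest of any member on log2(FPKM + 1). By the ratio of the KO to the WT mean, Pcx (2.07) and Gapdh (1.89) lay above Taldo1 (1.84). Tkt, transketolase (chromosome 14, 30548359 to 30574720), read 35.1, 35.8, 39.4 and 51.0 FPKM in WT 1 to 4 and 45.0, 63.7, 72.8 and 93.9 FPKM in KO 1 to 4. WT 4 and KO 1 overlapped, and the difference was 0.73 ± 0.24 on the log2 scale (SE; adjusted p = 0.184).

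Rpe, ribulose phosphate epimerase, read 10.7, 10.9, 10.9 and 12.2 FPKM in WT 1 to 4 and 18.5, 9.75, 3.65 and 5.03 FPKM in KO 1 to 4. KO 1 was above and the other 3 KO libraries below the narrow WT range, with KO 3 and KO 4 lowest and a difference of -0.48 ± 0.39 on the log2 scale (SE; adjusted p = 0.496). Of the exon bases of Rpe, 558 (17.9%) also lie in exons of Kansl1l on the opposite strand, and Kansl1l too was lowest in KO 3 and KO 4, at 2.00 and 6.63 FPKM against 10.5 to 18.9 in the other libraries. The sources used here do not say whether counting used strand, so reads from the shared bases cannot be told apart. Other members also share exon bases with another gene, on the same or the opposite strand. Among them are Pgls (20.6%), Pfkfb2 (17.4%), Pkm (15.3%), G6pdx (13.6%), Gpi1 (11.5%) and Pfkm (10.2%). Rpia, ribose 5-phosphate isomerase, was level at 3.31 ± 0.420 FPKM in WT and 3.34 ± 0.822 in KO.

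KO 3 and KO 4 both lay above KO 1 and KO 2 in 19 of 36 member rows and were the highest KO libraries in 7 of the 9 rows without overlap, Pgam1 and Pcx being the exceptions. How many of all rows have that order was not counted, so the 19 cannot be read as particular to the members. By library, the median difference of the 36 rows from the WT mean was -0.23, 0.22, 0.63 and 0.61 in KO 1 to 4 on the log2 scale, while for all genes it was -0.06, 0.04, -0.17 and -0.08. For lower glycolysis the medians were 0.33, 0.32, 0.94 and 0.67, and for the pentose phosphate pathway 0.21, 0.24, 0.69 and 0.83. Among the WT libraries WT 4 was highest, with a median of 0.25 and 31 of 36 rows above the WT mean. For all genes the median of WT 4 was 0.008, with 7278 of 14145 rows above the WT mean. Lower glycolysis and the non-oxidative branch were the steps whose median was above 0 in every KO library, and uptake with phosphorylation was below 0 in KO 1, KO 2 and KO 4 (-0.59, -0.31 and -0.22).

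**Figure D5:**
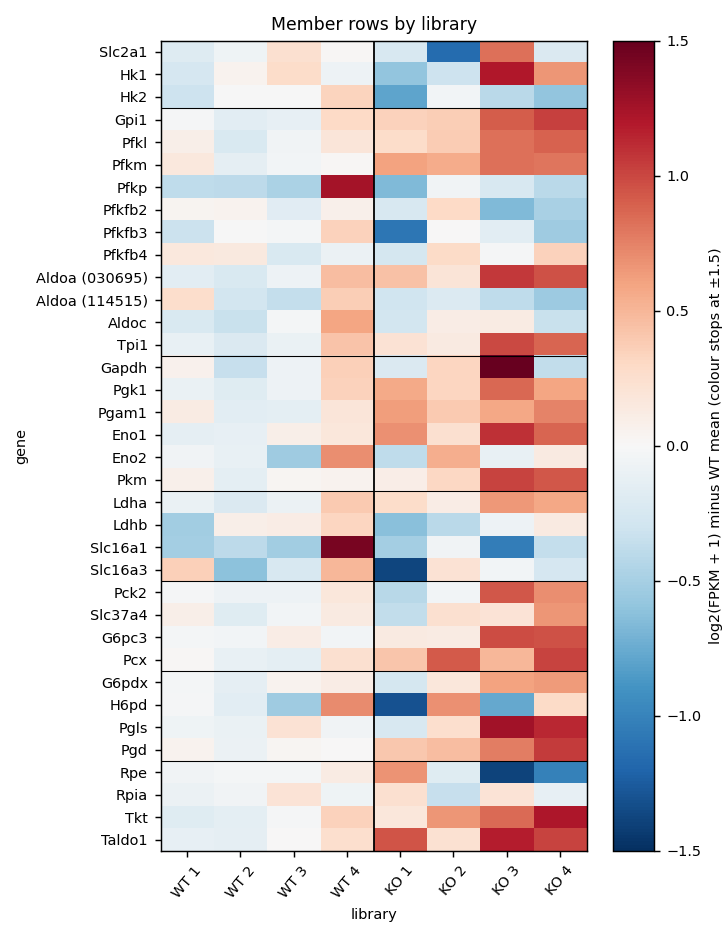
Member rows (lines, in pathway order; thin lines divide steps) by library (columns): log2(FPKM + 1) minus the WT mean of the row, with colour stopping at ±1.5, which the Gapdh row in KO 3 exceeds. KO 3 and KO 4 are high in most rows of lower glycolysis, gluconeogenesis and the oxidative branch, and Rpe and Pfkfb2 are low there.

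Without KO 3 and KO 4 the median of the 36 rows was 0.04, and KO 1 and KO 2 both lay below all WT libraries in Slc2a1 and Hk1. The mean of KO 1 and KO 2 was 1.09 to 1.99 times that of WT over the 9 rows chosen for having no overlap, lowest in G6pc3 and highest in Pcx, and that of KO 3 and KO 4 was 1.58 to 2.15 times. Within the male libraries alone, WT 1 to 4 against KO 3 and KO 4, 19 member rows were past an adjusted p of 0.05 and higher and 2, Pfkfb2 and Rpe, were past it and lower, where 17.6% of all rows were higher and 26.7% lower. In that comparison Pgls stood at a difference of 1.19, Taldo1 at 1.10 and Hk1 at 0.93. All female libraries are KO, so there is no comparison within females, and sex and whatever else sets KO 3 and KO 4 apart cannot be told apart. With the trend of each library on gene length and GC content removed, the differences of the 9 rows were 0.26 to 0.88 on the log2 scale, and the median of all members was 0.29.

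Promoters of the members were read for motifs of factors known to act on this pathway. RefSeq windows of 300 bases, 250 before and 50 after a transcription start, were found for all 35 member genes on GRCm38.p6. The motifs were searched on both strands. The core of hypoxia-inducible factor sites was searched as ACGTG together with its variant form GCGTG, the E-box was searched as CACGTG and overlaps the first of these cores, and the antioxidant response element core was searched as TGACNNNGC. Either hypoxia core stood in a window of 29 of 35 member genes (82.9%), against 67.2% of the 9936 genes of the table with a window and 46.7% of all 27025 genes. A gene with more windows has more places for a match, and the 35 member genes had 53 windows and the 27025 genes 32851. By window, either core stood in 73.6% of those of members and 43.8% of all. The latter include windows of genes without a row in the table, and the share by window for genes of the table was not counted. The E-box stood in 7 of 35 member genes against 11.7% of the table's, and the antioxidant core in 14.3% against 17.2%. Of the 9 members without overlap, 8 held either hypoxia core. A match is a description of letters, not of a bound site.

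The following stretches give the 150 bases before a start, 5′ to 3′ on the gene's strand, with the hypoxia cores and the E-box, on either strand, in capitals. Pgam1, Pfkm and Pcx were higher in every KO library, Taldo1 had the largest difference on log2(FPKM + 1), Ldha had the larger share in KO, and Hk2 was lower on average.
Pgam1, chr19:41911721-41911870, plus strand: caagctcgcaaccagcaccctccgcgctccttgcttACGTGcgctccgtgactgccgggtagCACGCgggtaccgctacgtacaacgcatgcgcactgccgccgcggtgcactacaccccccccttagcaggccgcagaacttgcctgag
Pfkm, chr15:98092439-98092588, plus strand: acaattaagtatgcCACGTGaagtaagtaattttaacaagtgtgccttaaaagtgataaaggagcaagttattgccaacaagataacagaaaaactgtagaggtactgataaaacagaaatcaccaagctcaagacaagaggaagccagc
Pcx, chr19:4510322-4510471, plus strand: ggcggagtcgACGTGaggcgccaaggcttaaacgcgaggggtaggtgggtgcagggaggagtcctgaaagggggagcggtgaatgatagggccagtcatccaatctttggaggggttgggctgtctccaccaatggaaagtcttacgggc
Taldo1, chr7:141392010-141392159, plus strand: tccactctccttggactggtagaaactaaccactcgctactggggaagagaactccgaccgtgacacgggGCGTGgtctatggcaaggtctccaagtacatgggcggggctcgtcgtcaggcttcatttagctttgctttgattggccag
Ldha, chr7:46845654-46845803, plus strand: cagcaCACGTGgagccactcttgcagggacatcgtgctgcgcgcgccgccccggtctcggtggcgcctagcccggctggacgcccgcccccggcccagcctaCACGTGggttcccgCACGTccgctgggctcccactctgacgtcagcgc
Hk2, chr6:82774455-82774604, minus strand: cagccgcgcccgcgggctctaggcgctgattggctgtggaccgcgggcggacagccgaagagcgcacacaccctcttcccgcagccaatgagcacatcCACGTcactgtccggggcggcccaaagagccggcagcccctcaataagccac
Pfkm, Pcx and Ldha also have other starts, further along the gene, whose windows held no E-box. The windows at the other Pcx start and at the last Pfkm start held none of the motifs. The Ldha stretch printed here holds the E-box in 2 places and the Pfkm stretch in 1, while Hk2, with a lower KO mean, also holds a hypoxia core. These letters therefore stand in members of either direction.

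Other genes of glucose handling were split in direction. Of 20 further glycolysis and isozyme rows 11 were higher in KO (median 0.05). The row with the symbol Pgm1 (ENSMUSG00000029171), of the phosphoglucomutase family, was lower without overlap, at 19.5 to 26.0 FPKM in WT and 14.7 to 17.4 in KO (adjusted p = 0.180). The row with the symbol Pgm2 (ENSMUSG00000025791), of the same family, went the other way, with overlap, at 18.34 to 25.66 FPKM in WT and 23.65 to 43.75 in KO (adjusted p = 0.192). Eno3, the muscle enolase, was higher without overlap, at 1.25 to 2.27 FPKM in WT and 2.72 to 7.34 in KO (adjusted p = 0.183). Bsg, basigin, the partner that carries monocarboxylate transporters to the membrane, read 203.5 to 261.0 FPKM in WT and 293.9 to 482.5 in KO (adjusted p = 0.173), whereas Emb, embigin, a partner of the same kind, was lower without overlap, at 7.66 to 9.93 against 3.22 to 7.10 FPKM (adjusted p = 0.154). Of 8 further gluconeogenesis and pentose phosphate rows 4 were higher, among them Shpk, which phosphorylates sedoheptulose (1.89 to 2.51 FPKM in WT, 3.09 to 4.63 in KO). Of 11 rows of glycogen, fructose and polyol genes 7 were higher, with Gyg, glycogenin, the primer of glycogen, without overlap (20.3 to 23.1 FPKM in WT, 27.8 to 40.8 in KO).

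The genes that feed pyruvate into mitochondria were higher in 6 of 14 rows, or 42.9%, near the 44.5% of all rows. Pdk4, the kinase that holds pyruvate dehydrogenase inactive, was lower without overlap, at 4.52 to 7.94 FPKM in WT and 1.87 to 4.05 in KO (adjusted p = 0.154). Of 25 regulators of glucose metabolism 18 were lower in KO, with a median difference of -0.39 against -0.06 for all genes. Foxo1, the insulin-restrained transcription factor that drives gluconeogenic genes, was lower without overlap (8.16 to 9.82 FPKM in WT, 4.36 to 6.08 in KO; adjusted p = 0.124), and so was Mlxip, the glucose sensor MondoA, at 11.8 to 14.0 against 5.84 to 11.2 FPKM. No gene of these 6 lists passed the adjusted test.

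Markers of other cells and of cell division differed alongside. Of 15 macrophage and leukocyte markers 14 were higher in KO, with a summed level of 1117 FPKM in WT 1, 107.2 to 121.8 in the other 3 WT libraries, and 622.1, 1854, 244.4 and 1182 in KO 1 to 4. On the log2 scale all 12 proliferation markers were lower on average (sums 64.7 to 93.5 FPKM in WT, 36.2 to 90.8 in KO), all 6 distal nephron markers with a row were lower (12.6 to 63.3 in WT, 2.65 to 21.8 in KO), and 6 of 7 fibroblast and pericyte markers were lower, although their sum, dominated by Acta2, was 134.7 to 1180 FPKM in WT and 591.7 to 1771 in KO. The 3 endothelial markers with a row were lower, with sums of 5.10 to 7.16 FPKM in WT and 1.55 to 3.29 in KO. The part of these cell markers in the differences of the members was not tested.

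In the authors' deposited table, 8 of the 36 member rows have p below 0.05 and 2, Pcx and Taldo1, are marked as up. The shares of all rows with such a p or mark were not counted here. These counts therefore cannot be read as particular to the members. The authors' adjusted p is below 0.05 in 53 of all 14145 rows. Among the members the lowest adjusted p in that table is 0.476, so that no member passes an adjusted threshold there either.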

How the data were processed

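RNA-seq values of 4 WT and 4 KO libraries were taken from 1 table of 14145 rows. Per the submitters' processing notes, reads were handled with FastQC, STAR 2.4.1d and DESeq2 on GRCm38; the sources used here do not name the counter or the handling of reads with several matches. The deposited values are not whole numbers and were read as the authors' FPKM, since multiplied by the exon length of GENCODE M21 (14134 rows matched), 95.0% to 95.5% of values of 1 to 200 reads lay within 0.05 of a whole read, against 9.2% to 11.2% at a wrong depth. Where an alternative needed them, limma-voom used these recovered reads. The authors deposited log2 fold changes, p-values and adjusted p-values as well, quoted only where named. Every column of values was mapped to a sample (0 unmapped).

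Values were analysed as log2(FPKM + 1) with limma 3.58.1 (R 4.3.3, variance trend, genotype the only term) on all 14145 rows, with Benjamini-Hochberg adjustment at 0.05, after the fit was tested on simulated data. The pseudocount of 1 understates differences of low genes. Shares of isozymes were tested by exact permutation over libraries (scipy 1.17.1), adjusted over 4 families; the carboxykinase family needs Pck1 and was not analysed here. Copies were found with blastn 2.17.0+ in GENCODE M21 transcripts. Promoter windows come from RefSeq on GRCm38.p6, and gene positions from GENCODE M21 on GRCm38. Isozyme proteins were not compared.

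The members, the other gene lists and the tests were chosen with earlier results of these data known. All members are named. Values of every library were given for rows with an unadjusted p below 0.05 or without overlap, for the most abundant row of each arm and for both Aldoa rows, and for Slc2a1, Gapdh and Rpe after their values were seen. Up to 3 genes of lowest p were named per other list, and Kansl1l, Peli2 and copies without the symbol of a member were named after their values were seen. Alternatives were other pseudocounts, keeping rows that reach 1 FPKM in 4 or more libraries, a fit with no variance trend, scaling by median ratios, the replicate number as a block, sex as a covariate, limma-voom with and without sample weights, removal of length and GC trends (lowess, span 0.3), male libraries alone, no KO 3 and KO 4, and leaving out each library.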

Additional observations from a re-analysis of the deposited data

Results flagged for a closer look

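Among 80 groups of 4 libraries, 9 held a library far from the other 3 by Dixon's 95% criterion, and chance alone marks about 1 group in 20. All 9 lay in WT. WT 4 stood apart in Pfkp at 14.64 FPKM, in Slc16a1 at 15.24 FPKM, in Tpi1 at 130.48 FPKM, in Rpe at 12.23 FPKM and in the Pfkm share of phosphofructokinase at 23.3%. WT 3 stood apart in G6pc3 at 25.98 FPKM, Pgls at 21.82 FPKM and Rpia at 3.94 FPKM as the highest library, and in Pfkfb2 at 1.17 FPKM as the lowest.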

How the results depend on the processing

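No member passed at pseudocounts of 0.5 or 0.1, with the filter, without a variance trend, with median-ratio scaling, with limma-voom on recovered reads, with length and GC trends removed or without KO 3 and KO 4. The count of members past the threshold was 20 with a sex covariate, 24 with sample weights and 21 in male libraries alone, and 0 to 4 when 1 library was left out, the 4 without KO 2. Since all female libraries are KO, the sex term takes up KO 1 and KO 2. The fit with the sex covariate therefore compares KO 3 and KO 4 with WT, as the male libraries alone do. It gives the same differences and is not a separate result. Over all genes the 11 became 3 at a pseudocount of 0.1, 7 with limma-voom, 2 after length and GC correction, 4838 with a sex covariate, 7502 with sample weights, 6275 in male libraries alone, and 1 to 1139 when 1 library was left out: 1 without WT 1, WT 2, WT 3, KO 1 or KO 4, 3 without KO 3 and 1139 without KO 2. Replicate numbers did not pair the libraries (correlations of same-numbered deviations 0.045, -0.208, 0.606 and -0.044 over 11888 genes), and only WT 3 and KO 3 correlated best with their own number; a replicate block gave 1 gene and 0 members. The cause of these changes was not tested. The median log2 difference of glycolysis, 0.16, was 0.46 with the sex covariate and in male libraries alone, 0.53 with sample weights, 0.31 with the filter, 0.33 without KO 1 and 0.04 without KO 3 and KO 4. That of gluconeogenesis, 0.42, was 0.79, 0.83 and 0.03 with the sex covariate (or males alone), with sample weights and without KO 3 and KO 4. That of the pentose phosphate pathway was 0.76 with the sex covariate, 0.76 in male libraries alone, 0.82 with sample weights and 0.13 without KO 3 and KO 4, against 0.44. Without KO 3 the glycolysis median was 0.01 and without KO 4 0.06.

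Some members turned direction, among them Rpe, at -0.48 with all libraries. With the sex covariate Slc2a1 was at 0.303, Ldhb at 0.031 and Rpia at 0.039, as in male libraries alone (0.303, 0.031 and 0.039). Without KO 3 and KO 4, Hk1 was at -0.45, Pfkfb2 at 0.028, Pck2 at -0.23, Slc37a4 at -0.066, G6pdx at -0.047 and Rpe at 0.25. With length and GC trends removed, Pfkp was at 0.10, Pfkfb2 at 0.059, Eno2 at -0.014, Slc37a4 at -0.025 and Rpia at 0.20. With sample weights Ldhb was at 0.036, Slc16a3 at 0.065 and H6pd at 0.31, and with median-ratio scaling Rpia was at 0.058. Leaving out 1 library at a time gave ranges of -0.54 to 0.12 for Slc2a1, -0.079 to 0.52 for Hk1, -0.50 to 0.076 for Pfkp, -0.21 to 0.10 for Aldoc, -0.086 to 0.62 for Gapdh, -0.13 to 0.28 for Eno2, -0.59 to 0.07 for H6pd, -0.091 to 0.11 for Rpia and -9.24 to 5.63 percentage points for the Slc16a1 share. Depth limits the second Aldoa row, at 1 to 14 reads or fragments per library, and Eno2 and Aldoc, whose lowest libraries held 32 and 34.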
